A study of Mus musculus with 16 samples.

Results

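The accessible chromatin around 9 adhesion genes of the leukocyte surface was examined in mouse bone marrow-derived macrophages (BMDMs). They were the integrin genes Itgb2, Itgal, Itgam, Itgax, Itga4 and Itgb1, the selectin ligand gene Selplg, and the integrin ligand genes Icam1 and Vcam1. Overlapping peaks of the 4 deposited ATAC-seq lists were merged into 37648 regions, and each region was given to a gene when its midpoint lay at most 100 kb from the gene's transcription start (TSS) on GRCm38. The 9 genes held 99 distinct regions by this rule, which uses position alone. A region is named here by its gene and the distance of its midpoint from the TSS in base pairs (bp), with plus for downstream.

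Integrins are heterodimers of an alpha and a beta chain that bind to other cells or to matrix. The beta chain of Itgb2 pairs with the alpha chains of Itgal (LFA-1), Itgam (Mac-1, CD11b) and Itgax (CD11c), and the chains of Itga4 and Itgb1 together form VLA-4. LFA-1 and Mac-1 bind ICAM-1, VLA-4 binds VCAM-1, and PSGL-1, the product of Selplg, is the ligand on which leukocytes roll along P-selectin. Itgam and Itgax are also in common use as surface markers of macrophages and dendritic cells.

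The libraries came from C57BL/6J BMDMs grown in L-cell conditioned medium and deprived of serum for a day. On day 8 the cells received 500 nM T0901317 (T0), a synthetic agonist of the liver X receptors (LXRs), or DMSO vehicle (Veh) for 3 hr, and were either collected or given 10 ng/mL of the TLR4 ligand lipopolysaccharide (LPS) for a further 2 hr in the same medium. Each of the 4 groups, Veh, T0, LPS and T0-LPS, had 4 libraries of 50000 cells. The LPS groups were also 2 hr longer in culture, and LPS and the longer culture cannot be told apart in the comparison of LPS with Veh. The agonist stayed in the medium, so T0 also acted 2 hr longer in T0-LPS than in T0. Differences with T0 in the absence and presence of LPS therefore differ in length of exposure too. ATAC-seq marks open chromatin through cuts by a transposase, and it measures neither transcript nor protein.

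The authors called peaks once per group on the pooled libraries, so each group gave 1 value per region, with no replicate error and no test. They then kept only peaks at histone marks of enhancers mapped in other macrophages, so a region missing from a list may be a peak that this filter removed. Peaks carry running numbers from the caller. Where the numbers of the flanking peaks follow each other, none skipped, no removed peak can lie between them. Where numbers are skipped, a removed peak may lie there. The caller's score was used only as a rank, as the percentile of the region's strongest peak within its own list (0 lowest, 100 highest), because scores grow with depth. Read depth is unknown from these lists.

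The Veh list held 35551 peaks, the T0 list 29839, the LPS list 33181 and the T0-LPS list 31085. The 6 macrophage markers reported here (Adgre1, Cd68, Lyz2, Mertk, Fcgr1 and Spi1) had a peak within 1 kb of the TSS in every list, against 0 of 5 T cell markers. Of 21924 protein-coding genes, between 45.6% (T0) and 48.8% (Veh) had such a peak. Among the other markers, Ms4a1 of 5 B cell genes, S100a8 of 5 neutrophil genes, and Kdr and Pecam1 of 5 endothelial genes had one, in every list. Because the lists kept only peaks at enhancer marks of macrophages, these counts cannot show which cells were present.

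Sequences are printed for 6 of the regions the results turn on, as the central 200 bp of the merged region on the plus strand of GRCm38, read from the RefSeq assembly. The first 3 held a peak in LPS and T0-LPS and were missing or weak in Veh and T0. Capitals mark matches to the NF-kB motif in the first pair, and the third has none marked.
Icam1 +6089 (chr9:21021974-21022173): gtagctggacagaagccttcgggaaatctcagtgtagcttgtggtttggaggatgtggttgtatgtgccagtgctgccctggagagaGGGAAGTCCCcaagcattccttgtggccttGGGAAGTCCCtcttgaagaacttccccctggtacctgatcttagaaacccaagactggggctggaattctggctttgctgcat
Icam1 +767 (chr9:21016652-21016851): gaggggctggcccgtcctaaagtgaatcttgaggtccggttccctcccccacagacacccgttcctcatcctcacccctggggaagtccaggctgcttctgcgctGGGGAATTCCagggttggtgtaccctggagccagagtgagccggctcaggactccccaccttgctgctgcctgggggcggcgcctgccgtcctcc
Itgal +1053 (chr7:127297213-127297412): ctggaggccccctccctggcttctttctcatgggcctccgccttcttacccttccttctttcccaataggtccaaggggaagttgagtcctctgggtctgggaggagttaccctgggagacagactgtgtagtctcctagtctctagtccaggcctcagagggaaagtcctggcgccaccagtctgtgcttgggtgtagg
Itgax -141 is the start-site region whose rank varied most over the lists, and its capitals mark an AP-1 match.
Itgax -141 (chr7:128129306-128129505): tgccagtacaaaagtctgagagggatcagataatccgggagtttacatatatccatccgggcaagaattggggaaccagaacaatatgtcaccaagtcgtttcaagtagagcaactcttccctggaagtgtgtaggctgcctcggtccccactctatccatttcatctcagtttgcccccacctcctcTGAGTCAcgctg
The last pair hold matches to the DR4 element (the nuclear receptor half-site AGGTCA repeated after a spacer of 4 bases, with up to 2 mismatches), to which LXR heterodimers are known to bind. Capitals mark that match.
Itgb2 +10652 (chr10:77540804-77541003): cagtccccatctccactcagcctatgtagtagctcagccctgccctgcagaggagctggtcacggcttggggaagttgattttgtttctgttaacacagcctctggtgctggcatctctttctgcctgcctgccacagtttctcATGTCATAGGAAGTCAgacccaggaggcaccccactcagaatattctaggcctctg
Selplg -39634 (chr5:113872178-113872377): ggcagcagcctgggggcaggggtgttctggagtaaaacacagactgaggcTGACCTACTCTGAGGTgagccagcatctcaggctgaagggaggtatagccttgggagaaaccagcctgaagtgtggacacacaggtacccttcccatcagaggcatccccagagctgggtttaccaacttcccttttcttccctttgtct

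**Figure D1:**
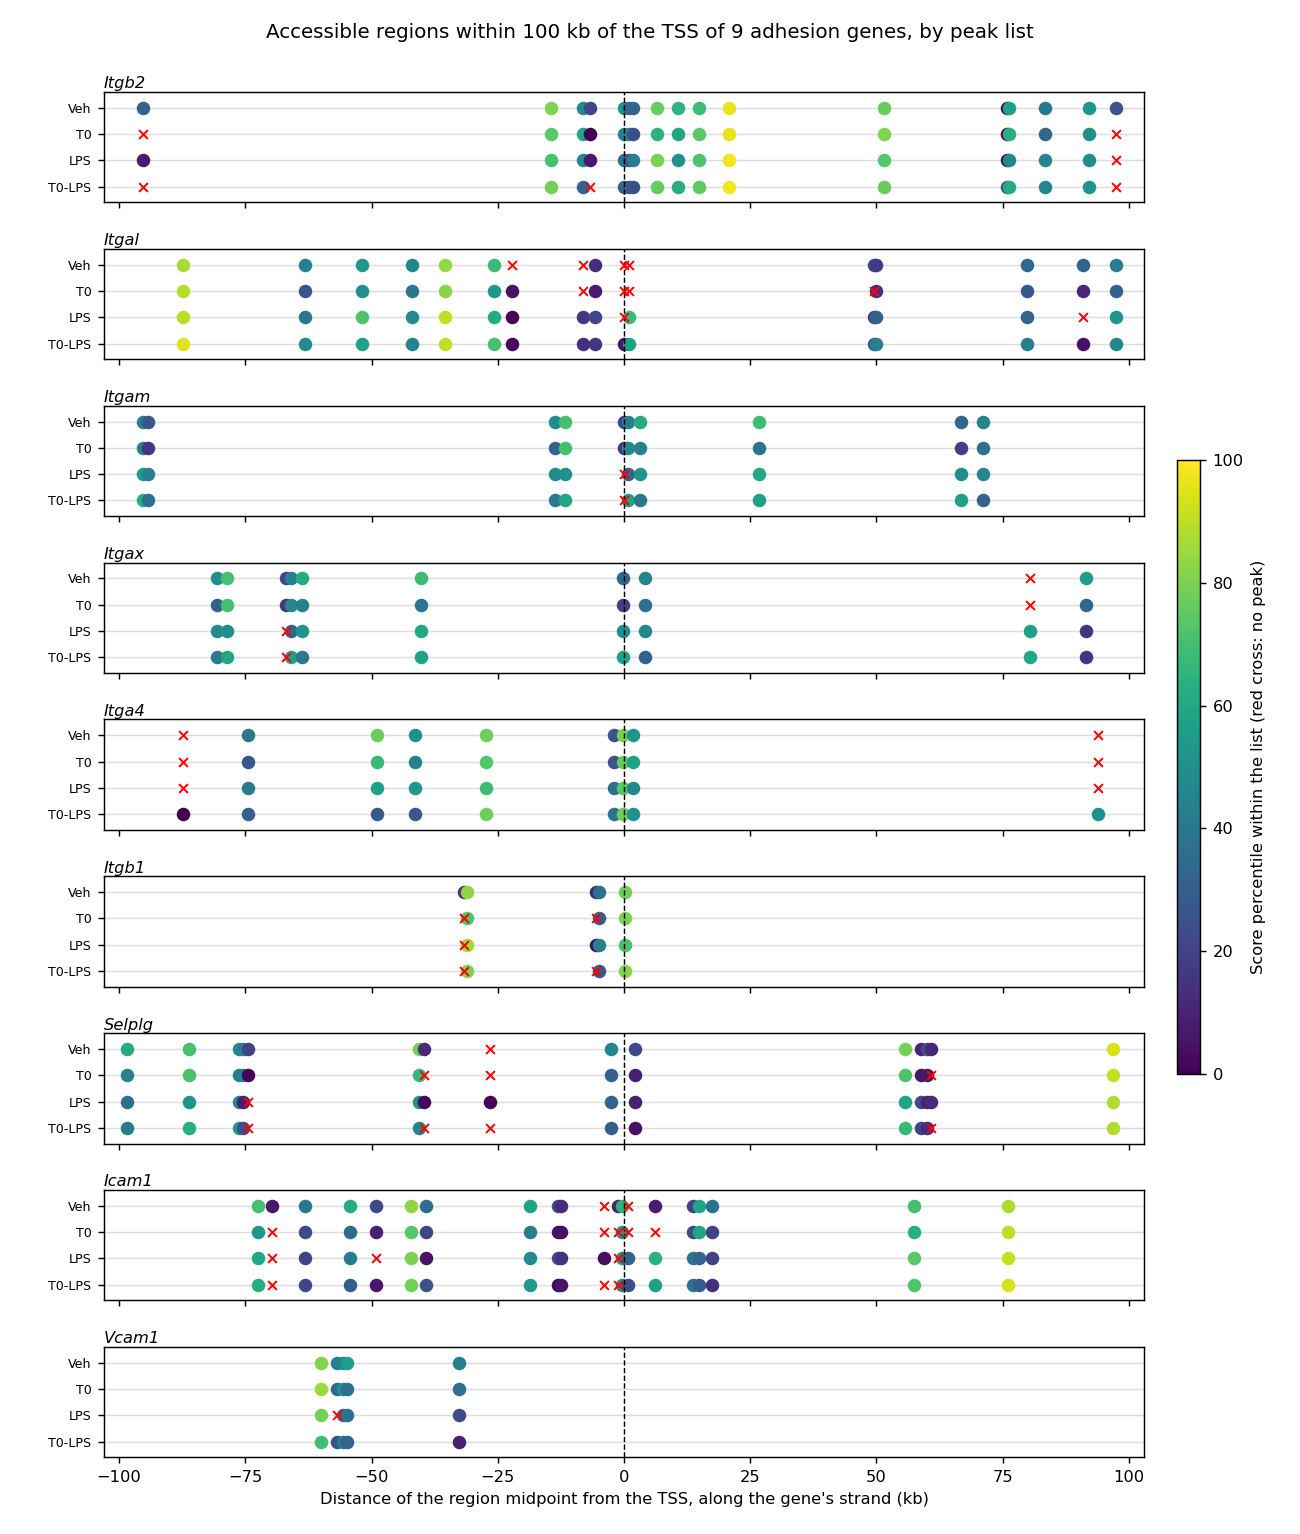
Each row of points is 1 peak list and each column of points 1 merged region, placed by the distance of its midpoint from the TSS in kb along the gene's strand. The color gives the score percentile within the list and a red cross means no peak. Just downstream of the TSS of Icam1 and Itgal, crosses in the Veh and T0 rows face colored points in the LPS rows, and Vcam1 has no region closer than 32668 bp. Regions shared by Itgam and Itgax are drawn for both.

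Apart from Itgb1 and Vcam1, the genes lay in densely populated surroundings. Icam1 had 20 regions, Itgb2 17, Itgal 16, Selplg 15, Itgam and Itgax 10 each, Itga4 9, and Itgb1 and Vcam1 5 each. Their median of 10.0 compares with 5.00 over 21924 protein-coding genes, of which 19.0% had none. Itgam and Itgax are neighbors on chromosome 7 and shared 8 of their regions. Of the 99 regions, 19 had their midpoint inside a member gene, 10 lay within 1 kb of a member TSS and 49 (49.5%, against 37.9% of all regions) within 1 kb of some TSS, so many belong by position to other genes. Near the edge of the rule, Selplg -98448 lay just inside at percentiles of 61.5, 44.2, 36.4 and 41.6 in Veh, T0, LPS and T0-LPS, and Itgal -100327 lay just outside at 67.7, 57.6, 60.5 and 63.2. Lists of 4 percentiles follow this order throughout.

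Most of these regions were accessible in every condition. A peak was present in all 4 lists at 73 of 99 regions (73.7%, Wilson 95% interval 64.3 to 81.4%), against 70.2% of all regions. The intervals given here cover counting error only. Regions that lie side by side are not independent, so the intervals may be too narrow. The 26 regions missing from at least 1 list are each described below.

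To ask what LPS alone changed, the Veh and LPS lists were compared. New LPS peaks appeared inside Icam1 and Itgal and in the neighboring integrin gene Itgad near Itgax, while the peak at the TSS of Itgam was present in Veh and missing in LPS. Of 87 regions with an LPS peak, 7 had no Veh peak (8.05%, Wilson 95% interval 3.95 to 15.7%), against a background of 6.14% over all regions. These were Icam1 +767 and -3917, Itgal +1053, -8100 and -22205, Itgax +80347 and Selplg -26605. No numbers were skipped in Veh at 3 of them, Icam1 +767, Icam1 -3917 and Itgal +1053. Itgal +1053 and Itgax +80347 ranked at or above the median of the LPS list, and 5 of the 7 (71.4%) kept a peak in T0-LPS, against 53.0% of all such regions.

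In the other direction, 9 of 89 regions with a Veh peak had no LPS peak (10.1%, Wilson 95% interval 5.41 to 18.1%), against a background of 13.0%. They lay at Itgb2, Itgal, Itgam, Itgb1, Selplg, Icam1 and Vcam1, and the one at the Itgam TSS also falls within the window of Itgax. All 9 ranked below the median of the Veh list, from percentile 6.54 to 42.3, and no numbers were skipped in LPS at 6 of them. With all lists cut to the 29839 strongest peaks, 12 of 78 were missing in LPS (15.4%, against 9.94% of all regions) and 9 of 75 in Veh (12.0%, against 9.30%). Among the 80 regions with a peak in both lists, the percentile was at least 10 points lower in LPS at 28 (35.0%, Wilson 95% interval 25.5 to 45.9%). The background of 25.2% lay just below that interval. The percentile was at least 10 points higher at 10 (12.5%, 6.93 to 21.5%, against 11.4%). The median change was -4.99 points for these regions and -2.01 for all regions. Ranks were also taken only among regions that held a peak in both lists, so that both ranks ran over the same regions. Then 23.8% were lower (Wilson 95% interval 15.8 to 34.1%) and 16.2% higher (9.75 to 25.8%). The shares of all regions, 18.4% and 17.2%, lay within these intervals.

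To ask what T0 changed in unstimulated cells, the Veh and T0 lists were compared. Losses were at weak regions of Itgb2, Itgal, Itgb1, Selplg and Icam1, and Itgam, Itgax, Itga4 and Vcam1 had none. Of 89 regions with a Veh peak, 10 had no T0 peak (11.2%, Wilson 95% interval 6.22 to 19.5%), against a background of 18.1%. Their Veh percentiles ran from 6.54 to 31.0, and no numbers were skipped in T0 at 8 of them. The T0 list was shorter than the Veh list, and with all lists cut to their 29839 strongest peaks 3 of 78 regions were missing in T0 (3.85%, against 7.70% of all regions) and 5 of 80 in Veh (6.25%, against 5.76%). The LPS list held a peak at 6 of the 10, against 48.2% of all such regions, and the T0-LPS list at 2 of the 10, Icam1 +6089 and Itgal +49497, against 35.6%. Only Itgal -22205 of 80 regions with a T0 peak was missing from Veh (1.25%, against a background of 0.729%), and 1 number was skipped in Veh there.

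The T0 percentile was at least 10 points lower than in Veh at 30 of 79 regions (38.0%, against a background of 34.1%) and at least 10 points higher at 1, Itgb2 +907 (1.27%, against 2.01%). The median change was -7.00 points, beside -5.58 over all regions, and was below 0 in each of the 9 genes. This direction changed with the ranking. Ranked only among regions with a peak in both lists, the median was 0.785, beside 0.128 over all regions, and was above 0 in 6 of the 9 genes. On this scale 7.59% were lower and 13.9% higher, against 12.7% of all regions in each direction. Icam1, Selplg and Itgax had medians below 0 under both rankings, here at -5.25, -3.01 and -2.17.

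To ask what T0 changed under LPS, the LPS and T0-LPS lists were compared. The regions that appeared or rose most with LPS, Icam1 +6089 and +767, Itgal +1053 and Itgax +80347, also held a peak in T0-LPS, and weak peaks of Itgb2, Itgb1, Selplg and Icam1 were missing there. Of 87 regions with an LPS peak, 7 had no T0-LPS peak (8.05%, Wilson 95% interval 3.95 to 15.7%), against a background of 9.97%. Their LPS percentiles were 1.56 to 12.2, and no numbers were skipped in T0-LPS at 5 of them. Conversely, 6 of 86 regions with a T0-LPS peak had no LPS peak (6.98%, Wilson 95% interval 3.24 to 14.4%), against a background of 3.37%. These lay at Itgal (2), Itga4 (2), Icam1 and Vcam1, and no numbers were skipped in LPS at 3 of them. With the full lists, the background lay within the interval in this and in each of the other 5 sets. With lists of equal length, 2 of 75 were missing in T0-LPS (2.67%, against 6.73% of all regions). In LPS 10 of 83 were then missing (12.0%, Wilson 95% interval 6.68 to 20.8%), and the background of 6.09% lay just below that interval.

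Among 80 regions with a peak in both LPS lists, the percentile was at least 10 points lower in T0-LPS at 12 (15.0%, against a background of 19.3%) and at least 10 points higher at 9 (11.2%, against 7.36%). The median change was -0.0241 points, beside -1.76 over all regions, with 40 regions below 0 and 40 above. Ranked only among regions of both lists, the median was 1.74, and 27.5% were higher and 8.75% lower, against 12.9% of all regions in each direction. No member region of the 73 in all lists moved by at least 10 points in opposite directions with T0 in the absence and in the presence of LPS, against 1.41% of all regions.

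**Figure D2:**
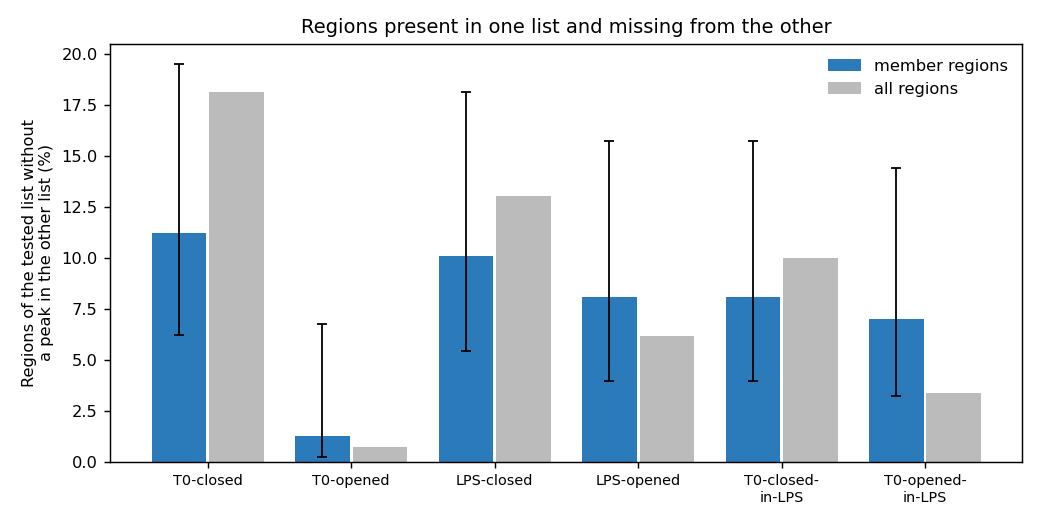
Bars give the percentage of regions with a peak in the tested list that had none in the other list, for the regions of the 9 genes (blue) and for all regions (gray), with Wilson 95% intervals for counting error. Closed means lost and opened means gained from Veh to T0, from Veh to LPS, or (in-LPS) from LPS to T0-LPS. Each gray bar lies within the interval of its blue bar.

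**Figure D3:**
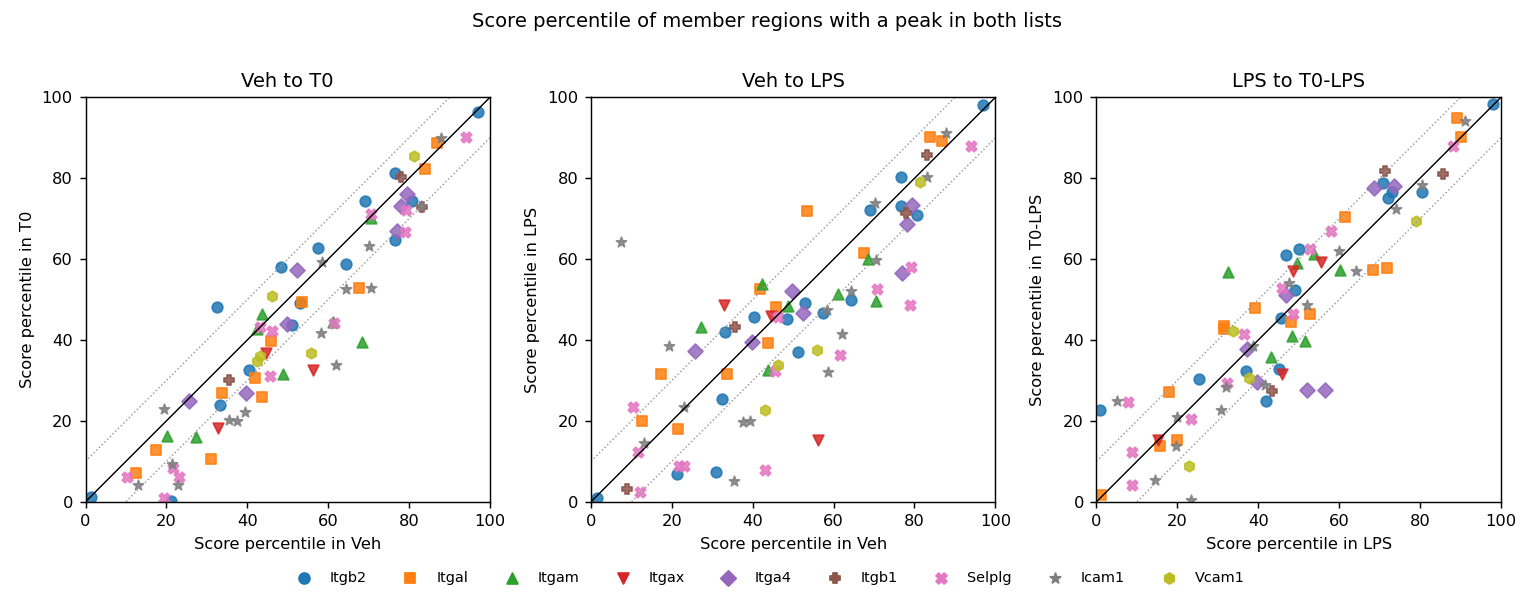
Each point is a region with a peak in both lists, at its score percentile in the 2 lists named above the panel, with symbols for the genes. The solid line marks equal rank and the dotted lines a difference of 10 points. Most points of the Veh to T0 panel lie below the solid line, and Icam1 +6089 stands alone at the upper left of the Veh to LPS panel.

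Itgb2, the common beta chain, held a peak in all lists at 14 of its 17 regions. Its TSS region, Itgb2 +55 (chr10:77530151-77530462, in the first exon), was at percentiles of 51.1, 43.6, 37.1 and 32.4, highest in Veh and lowest in T0-LPS. The differences with T0 there were -7.49 points without LPS and -4.72 under LPS, beside medians of -5.58 and -1.76 over all regions. The intronic Itgb2 +20867 was the strongest region of all 9 genes, at 97.0, 96.4, 98.0 and 98.4, and hardly varied. The intronic Itgb2 +907 went the other way from most regions with T0, at 32.5 in Veh and 48.1 in T0, with 25.3 in LPS and 30.3 in T0-LPS. Itgb2 +10652, an intronic region with the DR4 match printed above, was at 64.3, 58.8, 50.0 and 62.4, lowest in LPS. At Itgb2 +75845, a region at the start of Sumo3, the percentile was 1.43, 1.21, 0.955 and 22.7, and T0-LPS stood apart.

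The other 3 regions of Itgb2 were each missing from some list. Itgb2 -95357 was present in Veh and LPS, at 31.0 and 7.43, and missing with T0 in both settings, with no numbers skipped. Itgb2 -6807, upstream of the gene, was at 21.2, 0.302 and 6.79 and missing in T0-LPS with no numbers skipped, so that each list with T0 had it lower or absent beside its counterpart. Itgb2 +97447 was found in Veh alone, at 25.3, with 1 number skipped in each of the other lists.

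Itgal, the alpha chain of LFA-1, had no region with its midpoint within 1 kb of the TSS in Veh, T0 or LPS. Its TSS region, Itgal +52 (chr7:127296215-127296408), was a T0-LPS peak only. Its score there was 95 (percentile 6.36), and the other 3 lists skipped no numbers. Just downstream, the intronic Itgal +1053 (chr7:127297125-127297501) was missing in Veh and T0 with no numbers skipped. It had a score of 478 in LPS, at percentile 68.3, and of 342 in T0-LPS, at 57.2. Both lists without LPS thus lacked a region that ranked in the upper part of both lists with LPS.

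Further from the gene, Itgal -8100 was also called in the LPS lists alone, at 15.8 and 13.7, with 1 number skipped in Veh and none in T0. Itgal -22205, at the start of the selenophosphate synthetase gene Sephs2, was missing in Veh with 1 number skipped and weak elsewhere, at 4.89 with T0, 1.00 with LPS and 1.59 with both. Itgal +49497 was missing in T0 alone, with no numbers skipped, and was at 21.5 in Veh, 17.9 in LPS and 27.1 in T0-LPS. Itgal +90906 was missing in LPS with 1 number skipped and was at 31.0 in Veh, 10.7 in T0 and 4.23 in T0-LPS. Of the regions in all lists, Itgal -63131 had the largest T0 difference, at 43.7, 25.8, 39.3 and 47.9. That difference of -17.9 points was -7.21 when ranked among regions of both lists. Itgal -51806, near Zfp771, had the largest differences with LPS, at 53.5, 49.5, 71.9 and 57.7.

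Itgam encodes CD11b, and its TSS region was lost from the LPS lists. Itgam +3 (chr7:128062514-128062771) had a score of 173 in Veh, at percentile 20.1, and of 138 in T0, at 16.3, and was missing in LPS and T0-LPS with no numbers skipped. The intronic Itgam +862 beside it stayed in all lists, at 43.7, 46.5, 32.5 and 56.7. It was lowest in LPS and highest in T0-LPS, the largest gain of Itgam in that comparison. Itgam +26768, within the gene, had the largest fall with T0 of any region here, at 68.4 in Veh and 39.4 in T0, and was at 60.1 in LPS and 57.4 in T0-LPS. Itgam -11706 had the largest fall with LPS among the regions of Itgam, at 70.5, 70.1, 49.6 and 59.0.

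Itgax encodes CD11c, and its TSS region was higher in both LPS lists. Itgax -141 (chr7:128129156-128129655) had scores of 246, 145, 310 and 341, at percentiles of 32.8, 18.2, 48.6 and 57.1. This range of 38.9 points was the widest among the 6 members with a start-site region in all lists. Among 9767 protein-coding genes with such a region, the pattern over the 4 lists was nearest in Nova1, Llgl1 and Milr1, at Euclidean distances of 8.08, 8.12 and 8.65 points. The next region, Itgax +4254 (chr7:128133624-128133978), held 3 PU.1 matches and was at 44.6, 36.8, 46.0 and 31.6.

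The 2 regions of Itgax outside the window of Itgam lay in introns of Itgad, the neighboring gene for another alpha chain, and went opposite ways with LPS. Itgax +80347 had scores of 360 in LPS and 359 in T0-LPS, at percentiles of 55.5 and 59.4. It was missing in Veh and T0, where 3 and 2 numbers were skipped, so a removed peak may lie there. Itgax +91571 (chr7:128220887-128221349) was at 56.2 in Veh, 32.6 in T0 and 15.2 in both LPS lists, the largest fall with LPS of any region here.

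**Figure D4:**
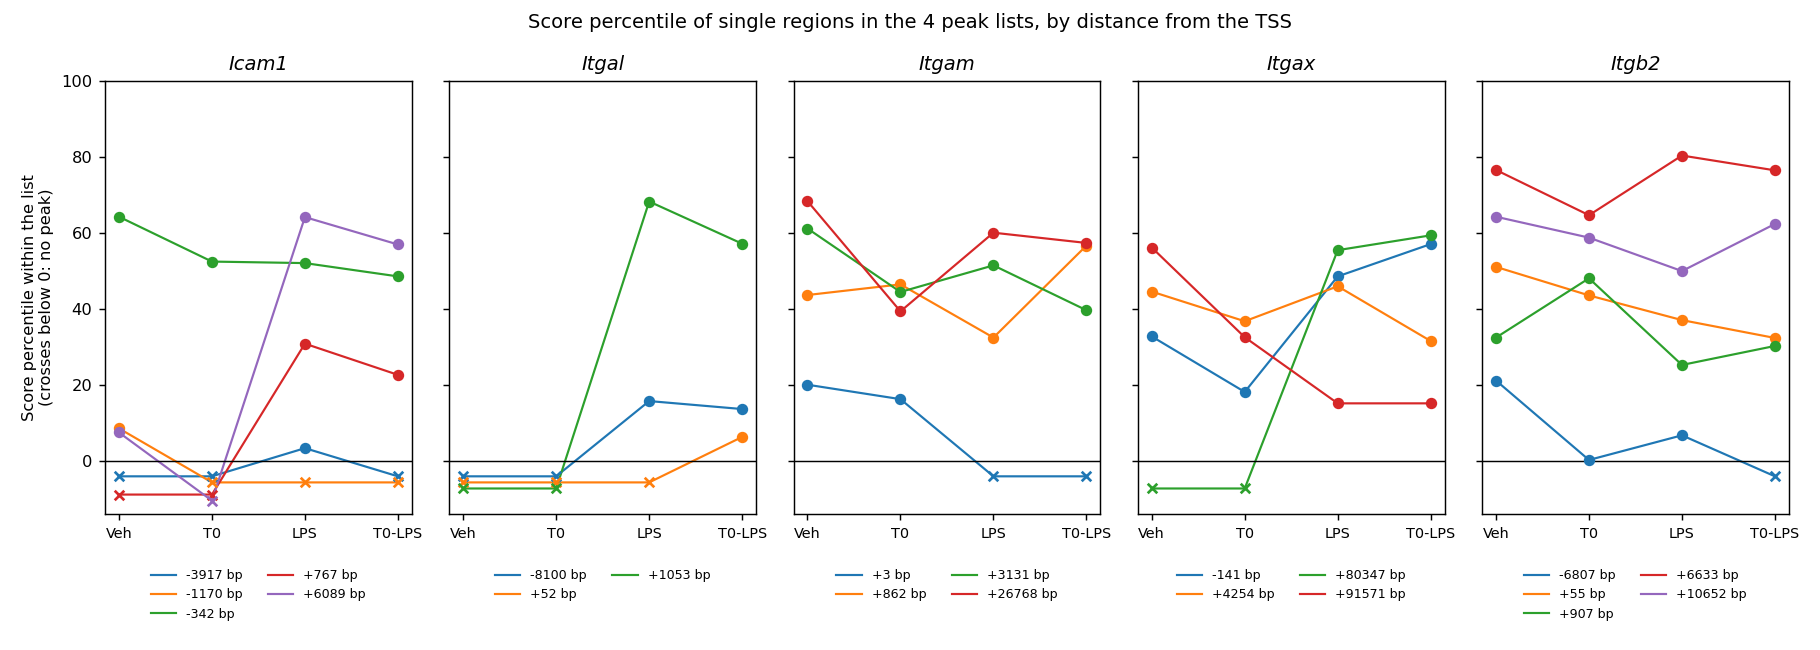
Lines join the score percentiles of single regions in the 4 pooled lists for Icam1, Itgal, Itgam, Itgax and Itgb2, with the distance from the TSS in the legend, and crosses below 0 mark lists with no peak. Icam1 +6089, Itgal +1053 and Itgax +80347 lie above 50 in both LPS lists and below 10 or absent in the others. Itgam +3 has a peak only in Veh and T0, at 20.1 and 16.3.

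Itga4, the alpha chain of VLA-4, had a strong TSS region in every list. Itga4 -152 (chr2:79254642-79255906) was at 79.5, 76.0, 73.5 and 78.1, a range of 6.01 points. Upstream, Itga4 -48935 was at 77.0, 67.0, 56.5 and 27.7, lower with each treatment and lowest with both. Its neighbor Itga4 -41359 was at 49.8, 43.9, 52.0 and 27.7, and thus was also lowest in T0-LPS. The largest T0 difference without LPS was at Itga4 -74470, at 39.8, 27.0, 39.6 and 29.7, and the difference of -12.8 points was -1.44 when ranked among regions of both lists. T0-LPS alone held Itga4 -87277, at 0.198, and Itga4 +93867, in an intron of Cerkl, at 50.3. Numbers were skipped in LPS at both, and in Veh and T0 at all but Itga4 -87277 in T0.

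Itgb1, the beta chain of VLA-4 and of many matrix receptors, likewise had a strong TSS region. Itgb1 +286 (chr8:128685288-128686591) was at 78.0, 80.4, 71.4 and 81.8. The distal Itgb1 -31014 was at 83.1, 73.0, 85.8 and 81.0, lowest in T0. Itgb1 -4886 was at 35.6, 30.1, 43.3 and 27.3. Under LPS its difference with T0 was -16.1 points, and -12.5 when ranked among regions of both lists. Without LPS the difference was -5.42 points, beside a median of -5.58 over all regions. Ranked among regions of both lists, the median T0 change of the 3 Itgb1 regions was 6.61 points. Beside these lay a pair of weak regions. Itgb1 -5600 was at 9.01 in Veh and 3.06 in LPS and missing in both T0 lists with no numbers skipped. Itgb1 -31785 was found in Veh alone, at 14.6, with 1 number skipped in LPS and none elsewhere.

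Selplg, which encodes PSGL-1, had its nearest region at +2239 (chr5:113830224-113830586), in an exon and 96 bp from the start of another Selplg transcript. It was at 21.7, 8.24, 8.82 and 4.23, highest in Veh. The upstream Selplg -2581 was also highest in Veh, at 45.6, 31.1, 32.4 and 29.3. With LPS, Selplg -75519, in an intron of the actin-binding gene Coro1c, had the largest fall of the gene, at 43.1, 43.1, 7.89 and 24.6. Of 13 regions of Selplg in both the Veh and LPS lists, 8 were at least 10 points lower in LPS and 1 higher, against 25.2% and 11.4% of all regions. The genes differed in this count, and Itgal had 0 of 11 lower and 3 higher.

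The regions of Selplg missing from a list ranked low. Selplg -39634, with the DR4 match printed above, was at 12.1 in Veh and 2.34 in LPS and missing in both T0 lists, where 2 and 1 numbers were skipped. Selplg +60718, in an exon of Sart3, was at 11.6 in Veh and 12.2 in LPS and missing in both T0 lists with no numbers skipped. Selplg -74472 was at 19.3 in Veh and 1.05 in T0 and missing in both LPS lists with no numbers skipped. Selplg -26605 was found in LPS alone, at 1.56, with numbers skipped elsewhere.

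Icam1 encodes the ligand of LFA-1 and Mac-1 and held the region with the largest rise from Veh to LPS. Icam1 +6089 (chr9:21021852-21022296), in an intron, had a score of 112 in Veh, at percentile 7.53, and none in T0, with no numbers skipped. Its score was 438 in LPS, at 64.2, and 340 in T0-LPS, at 57.0, a rise of 56.7 points from Veh to LPS. Icam1 +767 (chr9:21016617-21016886), also intronic, was missing in Veh and T0 with no numbers skipped and had scores of 205 in LPS, at 30.9, and 155 in T0-LPS, at 22.7. Both regions ranked lower in T0-LPS than in LPS, with differences of -7.25 and -8.12 points. Over all regions with a peak in both lists, the median difference was -1.76 points and the lower quartile -7.97, so falls of this size were common. Neither difference reached the size counted here as a change. The differences of these regions when ranked among regions of both lists are not given here.

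The TSS region of Icam1 did not share that pattern. Icam1 -342 (chr9:21015169-21016117) was at 64.3, 52.5, 52.1 and 48.6, highest in Veh. Close by, Icam1 -1170 was found in Veh alone, at 8.61, and Icam1 -3917 in LPS alone, at 3.41, with no numbers skipped in the other lists. In Dnmt1, an upstream neighbor, Icam1 -69739 was found in Veh alone, at 6.54, with no numbers skipped. Icam1 -49049, at the S1pr2 gene, was missing in LPS alone, with no numbers skipped, and was at 21.5 in Veh, 9.22 in T0 and 6.21 in T0-LPS.

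Among the regions of Icam1 in all lists, Icam1 -54234 had the largest fall with T0, at 62.0, 33.7, 41.6 and 29.0. Icam1 -39187, at the start of S1pr2, had the largest fall with LPS, at 35.4, 20.1, 5.11 and 25.0. At Icam1 -13129, near the start of Mrpl4, both T0 lists were far below the others, at 22.9, 4.06, 23.4 and 0.520. The neighboring adhesion gene Icam4 lay beside Icam1 +13604, at 19.3, 22.9, 38.6 and 38.5, higher in both LPS lists. The opposite held for Icam1 +14918, near the start of Icam5, at 58.5, 59.2, 32.1 and 28.4.

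Vcam1, the ligand of VLA-4, had no peak near its TSS in any list. Whether numbers were skipped there is not given here. Its nearest region, Vcam1 -32668 (chr3:116162116-116162595), lay in an intron of Gm26544 and was at 43.1, 36.1, 22.8 and 8.77. The other 4 lay together between -54829 and -60018. Vcam1 -54829 had the largest fall with T0, at 55.8, 36.7, 37.6 and 30.6. Vcam1 -56938 was missing in LPS alone, with no numbers skipped, and was at 42.3 in Veh, 34.7 in T0 and 26.3 in T0-LPS. All 4 regions with a peak in both Veh and LPS were lower in LPS, with differences of -2.20 to -20.3 points. The median difference over all regions was -2.01 points. At 3 of the 4 the fall was at least 10 points, against 25.2% of all regions.

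Peaks of the 9 genes were narrower with T0 to about the same degree as peaks elsewhere. Among regions with 1 peak in each list, 68 of 79 were narrower in T0 than in Veh (86.1%, against 87.6% of all regions), with a median change of -11.9% (all regions -11.3%). In LPS 53 of 78 were narrower than in Veh (67.9%, against 67.8%). In T0-LPS 44 of 78 were narrower than in LPS (56.4%, against 63.9%), with a median change of -0.984% (all regions -3.62%).

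Motif matches were counted on both strands of the central 200 bp of each region. The half-site AGGTCA was found in 14 of 99 regions (14.1%, against 11.9% of all regions), and DR4 in 3 (3.03%, against 1.94%), where a half-site can be part of a DR4 match. The AP-1 motif, TGACTCA or TGAGTCA, was found in 14 (14.1%, against 13.4%) and the PU.1 motif GAGGAAGT in 10 (10.1%, against 8.55%). An NF-kB motif was found in 4 (4.04%, against 4.30%). These shares were close to those of all regions. Among the 7 regions with a peak in LPS and none in Veh, 2 held an NF-kB match, 1 of them Icam1 +767, against 18.1% of 2000 such regions over the genome. The half-site was also found in 2 of the 7, against 12.5%. AP-1, PU.1 and DR4 matches were found in 0, against 14.1%, 6.10% and 2.15%. In Icam1 +6089, which was weak in Veh, the NF-kB motif matched at 2 places, bases 88 to 97 and 118 to 127 of the printed sequence, with the same letters. The median GC content was 54.0% in the regions of the 9 genes and 52.0% in all regions.

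The same counts were made for 20 other adhesion genes, among them further integrin chains (Itga5, Itga6, Itgav, Itgb3, Itgb5, Itgb7), the hyaluronan receptor Cd44, and the integrin activators Tln1, Fermt3, Rap1b and Apbb1ip. Over their 225 regions outside the windows above, 46 of 207 regions with a Veh peak were missing in T0 (22.2%, against 18.1% of all regions) and 0 of 161 regions with a T0 peak were missing in Veh (against 0.729%). The LPS list added 15 of its 192 regions to Veh (7.81%, against 6.14%) and lacked 30 of 207 (14.5%, against 13.0%). The T0-LPS list added 8 of 181 to LPS (4.42%, against 3.37%) and lacked 19 of 192 (9.90%, against 9.97%). The strongest gains with LPS were at Itgb5 -84059, at percentiles of 80.8 in LPS and 83.1 in T0-LPS with numbers skipped in Veh and T0, and at Apbb1ip +7435. The latter, downstream of the start of the gene for the integrin activator RIAM, was missing in Veh and T0 with no numbers skipped and was at 73.1 in LPS and 82.6 in T0-LPS. Alcam +28095 and Cd44 -77684 had the same pattern with no numbers skipped, the first at 50.0 in LPS and 54.6 in T0-LPS, the second at 25.9 and 39.8. Of the other LPS gains kept in T0-LPS, Itgb7 +7286, Tln1 +88709 and Apbb1ip +36947 also ranked higher there. Rap1b -64594 ranked lower, at 41.9 in LPS and 18.4 in T0-LPS, as did Cyth1 +32429, at 18.4 and 7.82. T0-LPS lacked LPS regions at 11 of the 20 genes (Itga5, Itga6, Itgav, Itgb5, Itgb7, Icam2, Alcam, Rap1b, Apbb1ip, Cyth1 and Skap2). Gains with LPS that were missing again in T0-LPS were weak, from Icam2 +33767 at 1.28 to Itga6 -14842 at 29.8.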

How the data were processed

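The 16 ATAC-seq libraries, 4 per group, were processed by the authors. Per the labels and the study's methods, reads were trimmed with cutadapt, aligned to mm10 with Bowtie2 and pooled by group, and MACS2 called peaks (q of 0.001, shift 88, extension 177) that were then kept only at enhancer marks. The deposited score is a whole number from the caller whose scale is not given in the sources used here. It was used only as a mid-rank percentile within its list.

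Peaks sharing at least 1 bp were merged (also checked with bedtools 2.31.1) and placed by the GENCODE vM21 basic annotation on GRCm38, using Python 3.11.15 and pysam 0.24.0. Peak numbers rose along every chromosome of every list. A list's loss or gain of a peak and a percentile change of at least 10 points were counted, with Wilson 95% intervals for counting error. Since each group is 1 pooled list, no p-value was computed, and the 4 libraries give no spread. The scripts recovered planted answers in simulated data.

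For each gene the text names the region nearest the TSS, each region missing from a list, and the largest percentile change per comparison among regions in all lists. Itgb2 +20867, Itga4 -41359, Selplg -2581, Itgax +4254, Icam1 +13604 and Icam1 +14918 were added after their values were seen. The genes and lists were chosen with earlier results of these data known. Of the markers and sequences, 1 gene and the sequence of 1 region are not reported here.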

Additional observations from a re-analysis of the deposited data

How the results depend on the processing

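Of 72 shares recomputed under an alternative, 50 stayed within the counting interval of the reported share, and the other 22 follow. Counting only peaks at or above the median score left 0% of regions lost with T0, 0% gained with T0, 0% lost with LPS, 0% lost with T0 under LPS and 2.78% gained there. Lists cut to equal length gave 3.85% lost with T0 and 2.67% lost with T0 under LPS. Regions within 10 kb gave 16.0% gained with LPS (4 of 25) and 0% gained with T0. With no room for a removed peak, 3.45% were gained with LPS and 0% with T0. A threshold of 20 points gave falls of 6.33% (T0), 15.0% (LPS) and 3.75% (T0 under LPS), and rises of 0%, 1.25% and 2.50%. For the median score, the 10 kb window, the room rule and 20 points, no share of all regions is given here. Those values are set only beside the reported shares, and a difference from other regions cannot be read from them. Ranking only regions of both lists gave falls of 7.59%, 23.8% and 8.75%, rises of 13.9% with T0 and 27.5% with T0 under LPS, and turned the median change with T0 from -7.00 to 0.785 points and with T0 under LPS from -0.0241 to 1.74. This ranking of the median changes was chosen after seeing the data and differs by construction only in the regions ranked. Single regions were examined on this scale only for the 27 largest changes per gene and comparison. Among these, none of at least 10 points turned direction. Leaving out a library could not be done on pooled lists. No paired analysis was possible because each group is 1 pooled peak list with no value per library.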
